A study of Mus musculus with 59 samples.

Results

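The genes described here encode complement and coagulation factors, most of them made by the liver, with the plasma proteases and inhibitors that act beside them. The list names 34 genes. A gene entered through probe sets that the platform annotation gives to it alone, and where it had several, the brightest across the 59 arrays stood for it. On these terms 31 of the 34 genes had a probe set, out of 18193 genes with one in all. C3 and Cpb2 are not analysed here, and C4b is not either because its probe set is also listed for C4a.

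Complement and coagulation are cascades of zymogens, inactive proteases that the step before cuts into an active form. Hepatocytes secrete most of these proteins into plasma, so a change in liver mRNA is a change at the main site of synthesis. In complement, lectins or antibodies on a surface recruit proteases that build convertases, and the convertases lead to the terminal components, which assemble a pore in a membrane. In coagulation, the contact and tissue factor routes meet at factor X and thrombin, antithrombin and the protein C system hold thrombin back, and plasmin dissolves the fibrin. Several of these genes belong to the acute phase, the shift in hepatic secretion during inflammation, and glucocorticoids act on part of that program.

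Liver RNA came from C57BL/6 males that were 6 weeks old at the start of the study, not at sampling. They got 2 weeks to adapt to their diet before treatment. Each sample was read on its own 1-colour Affymetrix array. In the first experiment the mice ate either AIN-76A, a purified diet, or LRD-5001, a chow. On each diet they received no added arsenite, 10 ppb or 100 ppb sodium arsenite in the drinking water, or 10 ppb in the food, for 5 weeks. In the second experiment all mice ate AIN-76A and were sampled 8 hours after they had received, intraperitoneally, saline alone, or dexamethasone, a synthetic glucocorticoid, at 1 mg/kg, or sodium arsenite at 1 mg/kg, or both. The 12 groups had 5 arrays each, except for 4 in the group given 100 ppb on AIN-76A. The labels call the arrays of a group biological replicates, and the arrays are named below by the letters of the labels. All values are log2 expression values after RMA (robust multi-array average), and a difference of 1 is a doubling. Adjusted p-values come from limma over all 45037 probe sets tested, and a member passed where its adjusted p was under 0.05.

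The mean level of 9 hepatocyte markers was high on every array, between 11.16 and 11.52, although 1 of the 9 was dimmer than the median probe set. By rule, 1 array per group was taken as the one that stood apart. It was the lowest on the leading axis of the within-group variation (27.6% of the variance). The axis was oriented to rise with the upper quartile, and each such array had a lower upper quartile than the mean of the rest. The axis was built from the probe sets brighter than the median, the members among them. Low members on these arrays are therefore no independent result. On these 12 arrays F5, F9, F11 and F13b were lower than on the rest of the group in 12 of 12 groups, by 0.56, 0.25, 0.50 and 0.42 in the mean. In the injection experiment, saline array E had the highest mean level of 8 neutrophil markers, 5.86 against 2.73 to 3.18 on the other saline arrays, and the array of the double injection with letter A followed with 4.45. Double injection array E had Fkbp5, a glucocorticoid target, at 8.61 against 9.64 to 10.17 on the others of its group, and saline array C had it at 8.54 against 5.64 to 7.01. For part of the results below, fits that leave out such arrays are given too.

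The 31 probe sets were all brighter than the median probe set. Their means over the 59 arrays ran from 5.74 for Cfp to 12.4 for Serpinc1, a range that says nothing on the relative amounts of the mRNAs. Within groups, the SD of the deviations was largest for Klkb1 (0.506), Pros1 (0.480) and Cfp (0.457). It was smallest for Serpinc1 (0.0694), the gene of antithrombin, for F2 (0.0861), the gene of prothrombin, and for Serpind1 (0.136). The median SD over the members was 0.250, against 0.233 over 1 probe set per gene. The group means of a member spanned 0.47 in the median, and most in Klkb1, from 8.30 after the double injection to 10.06 on LRD-5001 with 100 ppb in water. The map of differences shows the members by role against the comparisons.

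**Figure D1:**
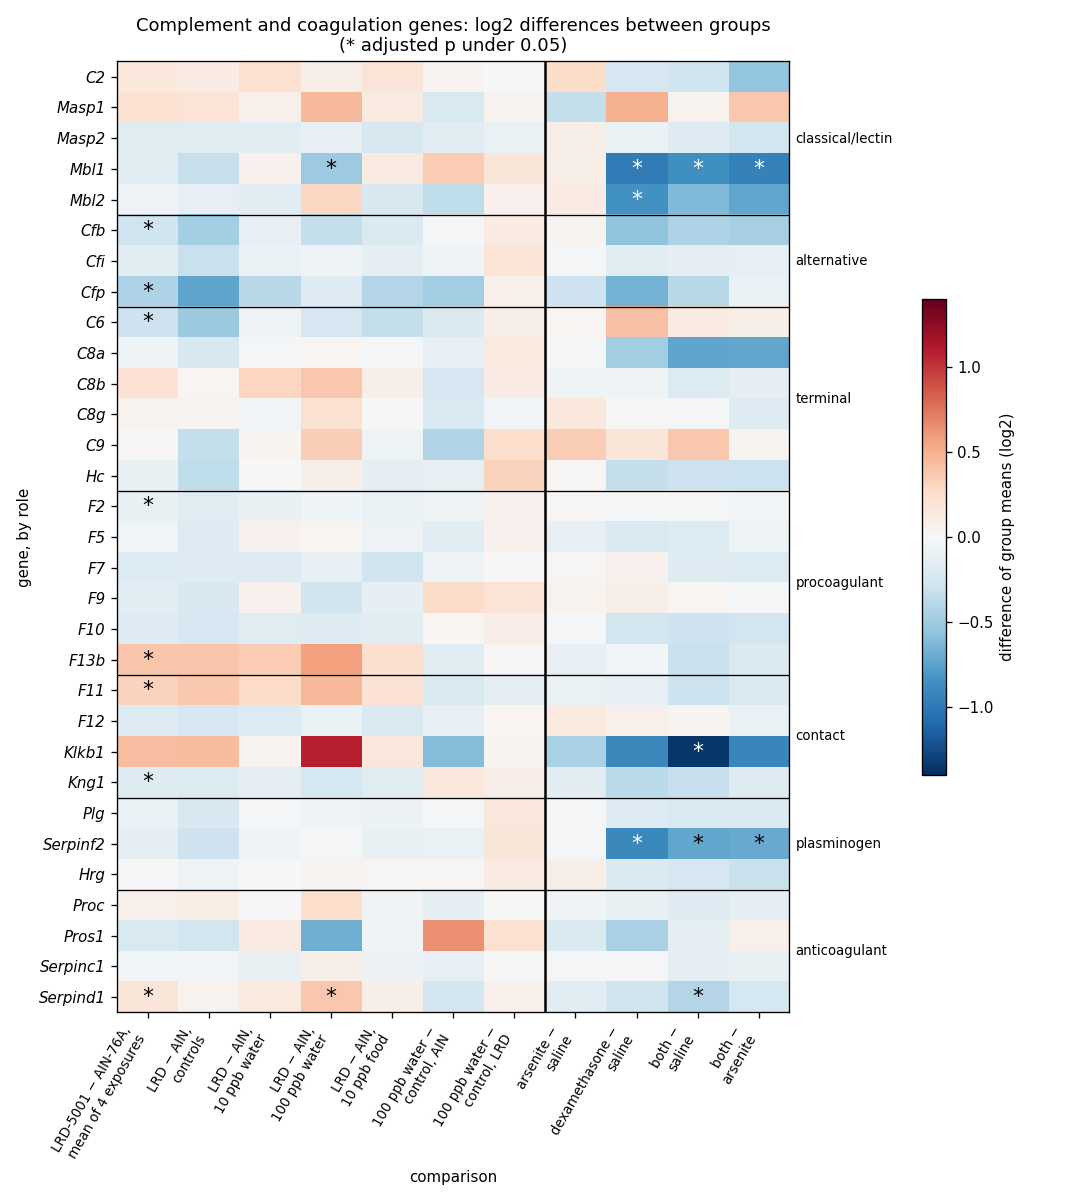
Differences of group means on the log2 scale for the 31 genes (lines, ordered by role) in 7 comparisons of the 5-week experiment and 4 of the injection experiment (columns, split by the thick line). Red is higher and blue lower in the group named first, and asterisks mark adjusted p-values under 0.05. Mbl1 and Serpinf2 carry asterisks in all 3 comparisons with dexamethasone, and no member does in the columns for arsenite alone.

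Dexamethasone lowered the mannose-binding lectins and the main plasmin inhibitor in the liver within 8 hours. Mbl1 and Mbl2, the lectins that start the lectin pathway of complement by binding microbial sugars, and Serpinf2, which encodes alpha-2-antiplasmin, fell to between 0.507 and 0.554 of the saline level. These 3 of 31 members passed, all lower. The share of all probe sets that passed was 1.74% in either direction and 0.753% lower. The median difference was -0.18 over the members and -0.01 over all probe sets. Without correction 8 members had a p under 0.05.

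Mbl1 read 9.97, 10.40, 10.44, 10.46 and 10.65 on the saline arrays and 9.20, 9.35, 9.46, 9.50 and 9.50 after dexamethasone. After arsenite alone it read 10.10, 10.21, 10.25, 10.84 and 10.90, and after both agents 9.20, 9.22, 9.41, 9.73 and 10.04. All arrays with dexamethasone alone lay below all saline arrays, and all arrays with both agents lay below all arrays with arsenite alone. The mean was 10.38 ± 0.25 (SD, n = 5) with saline and 9.40 ± 0.13 (SD, n = 5) with dexamethasone, a difference of -0.98 (SE 0.18, adjusted p = 0.0050).

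Serpinf2 read 10.36, 10.87, 10.93, 10.99 and 11.04 with saline and 9.47, 9.92, 10.01, 10.08 and 10.20 with dexamethasone. The groups did not overlap, although saline array B was far below the other saline arrays. Its mean fell from 10.84 ± 0.28 to 9.94 ± 0.28 (SD, n = 5 each), a difference of -0.90 (SE 0.17, adjusted p = 0.0055). Alpha-2-antiplasmin is the fast inhibitor of plasmin in plasma. With both agents the values were 9.78, 9.79, 10.04, 10.29 and 10.62, so the highest array reached into the saline range.

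Mbl2 read 10.62, 10.76, 10.80, 10.92 and 11.07 with saline and 9.65, 9.72, 9.95, 10.13 and 10.45 with dexamethasone, again without overlap. The difference was -0.85 (SE 0.18, adjusted p = 0.0188), and without saline array E it was -0.79 with an adjusted p of 0.0616. Without dexamethasone array D its adjusted p was 0.0648, and without the arrays that stood apart it was -0.84 with an adjusted p of 0.0664. In each of these cases 2 members passed, Mbl1 and Serpinf2. With both agents Mbl2 read 9.72, 9.98, 10.15, 10.32 and 10.93, where the highest value is double injection array A, and the difference to saline was -0.61 (adjusted p = 0.15).

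In all, 6 members had every dexamethasone array below every saline array, Serpind1, Klkb1 and Kng1 beside the 3 above, while 1.93% of all probe sets were separated in this way. Kng1, the kininogen gene, fell short of the threshold with -0.38 (adjusted p = 0.23). Because the RNA is from whole liver, fewer cells of a type and less RNA per cell cannot be told apart. None of the 9 hepatocyte markers passed in the comparison of dexamethasone with saline. The 10 Kupffer cell markers averaged 5.36 to 5.99 after dexamethasone and 5.56 to 7.99 with saline, and none passed. The 8 neutrophil markers, of which 5 were dimmer than the median probe set, averaged 2.21 to 2.40 against 2.73 to 5.86, and none passed. Of 20 acute phase genes outside the members none passed either, with a median difference of -0.46. The part of these shifts in the members' results was not tested.

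**Figure D2:**
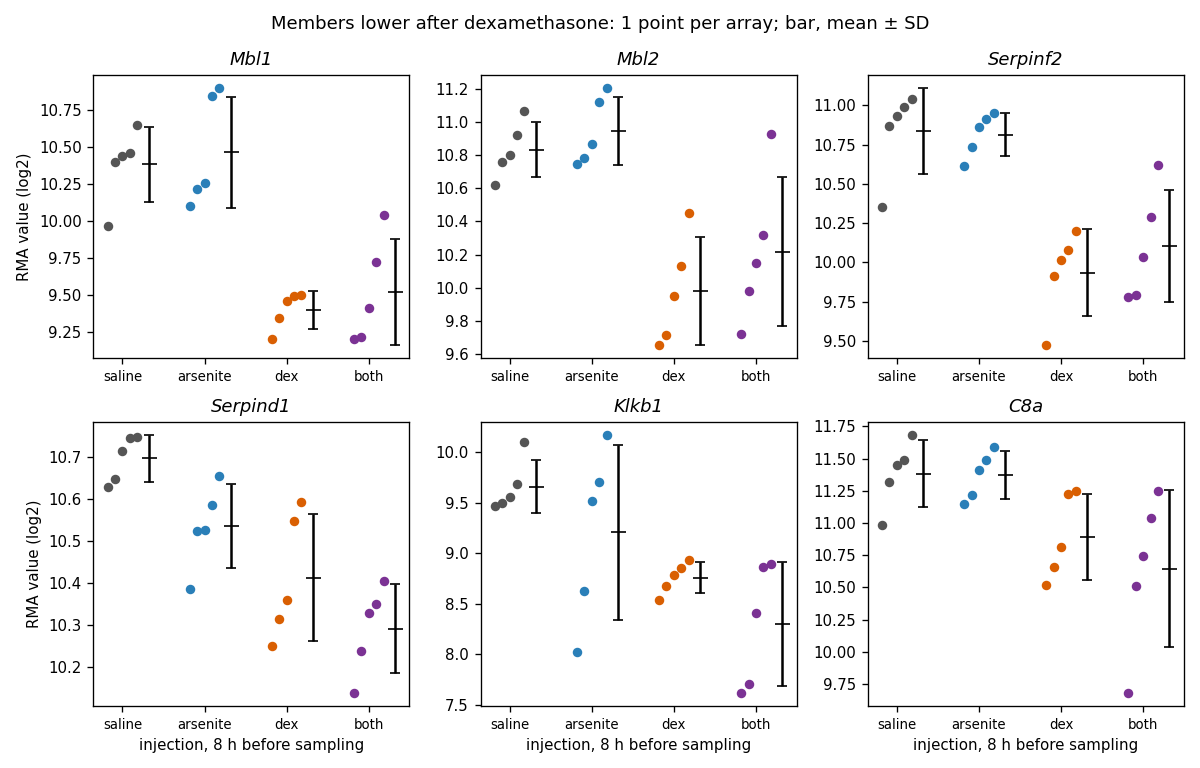
Log2 RMA values of 6 members on each array of the 4 injection groups, 8 hours after the injection, with the mean ± SD beside the points. Mbl1, Mbl2 and Serpinf2 sit below the saline arrays on every array with dexamethasone alone, and Klkb1 spreads from 8.03 to 10.17 after arsenite alone.

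The double injection lowered 4 of 31 members against saline and raised none, where 0.926% of all probe sets passed, 0.424% lower. Serpind1 encodes heparin cofactor II, a thrombin inhibitor, and Klkb1 plasma prekallikrein, a zymogen of the contact system. Serpind1 read 10.63, 10.65, 10.71, 10.74 and 10.75 with saline and 10.14, 10.24, 10.33, 10.35 and 10.40 with both agents. The groups were separated, and the difference was -0.41 (SE 0.078, adjusted p = 0.0129). Dexamethasone alone gave 10.25, 10.31, 10.36, 10.55 and 10.59, also below every saline array, with a difference of -0.28 (adjusted p = 0.078). Mbl1 (-0.86, adjusted p = 0.0211) and Serpinf2 (-0.73, adjusted p = 0.0368) fell as well.

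Klkb1 read 9.47, 9.49, 9.55, 9.68 and 10.10 with saline and 7.62, 7.70, 8.41, 8.87 and 8.89 with both agents, a difference of -1.36 (SE 0.32, adjusted p = 0.0492), which is 0.389 of the saline level. The 2 lowest values with both agents were those of double injection arrays A and E. Klkb1 passed in 1 of the 10 fits that each left out 1 array, with differences from -1.51 to -1.19. It read 8.54, 8.68, 8.78, 8.86 and 8.94 with dexamethasone alone, a difference of -0.90 that did not pass (adjusted p = 0.23). Both groups lay below every saline array. With arsenite alone it read 8.03, 8.62, 9.52, 9.71 and 10.17. The 2 low arrays, E and A, were also those with the highest acute phase level, 11.80 and 11.55 against 9.41 to 10.25 on the others. They had Mt1, a metallothionein gene, at 12.86 and 12.61 against 6.89 to 7.14. High Mt1 was not particular to arsenite, since it read 8.96 to 12.9 with saline and 10.5 to 11.6 with dexamethasone alone. The values of Klkb1 by array are given because of their spread, and this choice was made after the values were seen.

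The separation of groups held for 2 of the 31 members in the double injection, Serpind1 and Klkb1, and for 1.15% of all probe sets. The count of 4 rested on single arrays. It was 2 without double injection array E, 2 without saline array A or C, 5 without double injection array A, and 1 without saline array E or F or double injection array C or D. Serpind1 passed in each of these fits, but not with the replicate letters as a block (-0.39, adjusted p = 0.0846), where the 1 member that passed was Mbl1. Without all arrays that stood apart only Serpind1 passed of the 4.

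Added to arsenite, dexamethasone lowered 2 members, Mbl1 (-0.94, SE 0.18, adjusted p = 0.0113) and Serpinf2 (-0.71, SE 0.17, adjusted p = 0.0468). Of all probe sets 0.881% passed, 0.302% lower. For Mbl1 the arrays did not overlap, as for 0.826% of all probe sets. Mbl2 had a difference of -0.72 that did not pass (adjusted p = 0.078). The comparisons with saline share the saline arrays, so their values stand side by side and are no repeats of each other. Without arsenite array A, B, D, E or F, or without double injection array C, D, E or F 1 member passed, Mbl1, and without double injection array A, 3 did.

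Averaged over both levels of arsenite, a comparison added after the data were seen, dexamethasone lowered 6 of 31 members and raised none. The share of all probe sets that passed was 4.3%, and 1.69% were lower. The members were Mbl1 (-0.96, SE 0.13, adjusted p = 9.6e-05), Serpinf2 (-0.80), Mbl2 (-0.79), Klkb1 (-0.91, adjusted p = 0.0264), Serpind1 (-0.26) and C8a (-0.61, adjusted p = 0.0338), which encodes the alpha chain of complement component 8 in the pore. No member separated all 10 arrays with dexamethasone from all 10 without, which 0.153% of the probe sets did in the lower direction. C8a dropped out without any 1 of 11 arrays, among them saline arrays A, C, E and F. With 1 array left out its difference ran from -0.68 to -0.49. On double injection array E it read 9.68, against 10.51 to 11.25 on the others of that group. Without arsenite array B, Klkb1 had an adjusted p of 0.0507. Without double injection array E 6 members passed. With the replicate letters as a block Serpind1 did not pass (-0.26, adjusted p = 0.0543). Without all arrays that stood apart 4 did, and Klkb1 had an adjusted p of 0.117. Of the 9 hepatocyte markers 1 was higher and 1 lower in this average, and their part in the result was not tested.

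By role, the 5 genes of the classical and lectin initiators had a median difference of -0.39 in that average and 2 of them fell. Masp1, the protease that lectins carry, read higher by 0.44 and did not pass. Its probe sets disagreed against saline too, where this one gave 0.50 after dexamethasone and the next brightest -0.35, neither passing. Of the 6 terminal components 1 fell, and C6 read higher by 0.25 without passing. Of the 6 procoagulant zymogens and cofactors none passed, with a median of -0.09 and F2 at -0.03. Each of the contact system (4 genes), the plasminogen system (3 genes) and the anticoagulants (4 genes) had 1 gene that fell. F10 has a second probe set that passed with dexamethasone alone (-0.58, adjusted p = 0.0407) and with both agents (-0.62, adjusted p = 0.0403), while the one that stands for the gene did not (-0.25, adjusted p = 0.56, and -0.29, adjusted p = 0.54).

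Arsenite by injection moved no member past the threshold, alone, on top of dexamethasone, or in its interaction with dexamethasone. In each of these 3 comparisons limma passed 0% of all probe sets, and no member (0 of 31) had a p under 0.05 before adjustment either. The differences to saline ran from -0.45 (Klkb1, SE 0.32) to 0.34 (C9, SE 0.24), and Serpind1 had the smallest p with -0.16 (SE 0.078). On top of dexamethasone the smallest p-values were those of Masp1 (-0.45), F13b (-0.27) and Serpind1 (-0.12). In the interaction they were those of C8g (-0.20), Cfp (0.57, SE 0.50) and F7 (-0.25).

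The bases before the start of the 5 genes that fell after dexamethasone or after both agents are shown so that the promoters of the members that moved together can be compared. They are the 250 bases upstream of the RefSeq gene start on GRCm38.p6, and RefSeq promoters were found for 26 of the 34 genes. Capitals mark matches to the motifs named in the next paragraph and, in Mbl1 and Mbl2, the longest run of bases that the pair shares, which lies nearest to the start in Mbl1.
Mbl1, chr14:41151206-41151455, plus strand: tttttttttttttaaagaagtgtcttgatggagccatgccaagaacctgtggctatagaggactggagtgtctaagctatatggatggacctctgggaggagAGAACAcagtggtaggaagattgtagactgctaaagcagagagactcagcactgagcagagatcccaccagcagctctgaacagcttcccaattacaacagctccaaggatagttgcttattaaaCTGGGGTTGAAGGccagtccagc
Mbl2, chr19:30232678-30232927, plus strand: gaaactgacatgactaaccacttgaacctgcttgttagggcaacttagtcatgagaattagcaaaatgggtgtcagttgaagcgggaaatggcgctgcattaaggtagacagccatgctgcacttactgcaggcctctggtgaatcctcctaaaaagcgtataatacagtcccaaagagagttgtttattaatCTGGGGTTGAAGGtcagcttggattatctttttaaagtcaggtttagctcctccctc
Serpinf2, chr11:75439502-75439751, minus strand: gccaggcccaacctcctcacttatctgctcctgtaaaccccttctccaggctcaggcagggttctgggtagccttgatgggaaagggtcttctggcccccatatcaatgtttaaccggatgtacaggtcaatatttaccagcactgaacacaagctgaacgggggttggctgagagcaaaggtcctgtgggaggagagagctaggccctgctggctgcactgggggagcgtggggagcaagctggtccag
Serpind1, chr16:17331121-17331370, plus strand: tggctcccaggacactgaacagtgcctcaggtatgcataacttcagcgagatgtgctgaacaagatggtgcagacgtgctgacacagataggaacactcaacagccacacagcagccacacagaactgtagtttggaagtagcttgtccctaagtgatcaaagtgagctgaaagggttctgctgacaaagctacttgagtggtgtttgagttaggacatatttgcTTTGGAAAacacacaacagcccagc
Klkb1, chr8:45294836-45295085, minus strand: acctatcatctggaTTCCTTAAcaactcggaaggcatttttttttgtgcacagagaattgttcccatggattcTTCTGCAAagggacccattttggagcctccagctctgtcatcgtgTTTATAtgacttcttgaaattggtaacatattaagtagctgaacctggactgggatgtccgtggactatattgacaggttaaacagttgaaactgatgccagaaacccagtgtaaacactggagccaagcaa

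The motifs were searched on both strands of the 250 bases. The full glucocorticoid receptor element ACANNNTGT was in none of the 5, in C9, F11 and Hrg among the 26, and in 5.84% of 32851 promoters of this length. The half-site AGAACA stood 148 to 143 bases before the start of Mbl1, and in 16.1% of all promoters. The negative glucocorticoid element in the form CTCCNGGAG was in none of the 26 and in 1.39% of all. Forms with another spacing were not searched. The C/EBP motif TTNNGNAA was in Serpind1, 25 to 18 bases before the start, and at 236 to 229 and 177 to 170 bases in Klkb1. It was in 11 of the 26 and in 36.8% of all. The TATA box TATAAA was in Klkb1, on the other strand, and in 12.4% of all promoters. The HNF1 half-site GTTAAT (5 of 26, and 6.43% of all) and the STAT motif TTCNNNGAA (4 of 26, and 7.02% of all) were in none of the 5. The run shared by Mbl1 and Mbl2 has 13 bases, starts 23 bases before the start in Mbl1 and 57 in Mbl2, and was in 3 of the 32851 promoters, these included. AGAACA can lie within a full element, and no matches overlapped in the 5 windows shown.

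The diets differed in both directions. On LRD-5001, averaged over the 4 exposure levels, F13b, F11 and Serpind1 were higher than on AIN-76A, and Kng1, Cfp, Cfb, C6 and F2 were lower. So 8 of 31 members passed, 3 higher and 5 lower. Of all probe sets 4.26% passed, 2.67% higher and 1.59% lower. The median difference was -0.09 over the members and -0.01 over all probe sets, and limma gave 17 members an unadjusted p under 0.05. The count of 8 was 3 without AIN-76A control array E, AIN-76A 10 ppb water array A, LRD-5001 control array C or LRD-5001 food array E. It was 4 without LRD-5001 food array F, 10 ppb water array D or 100 ppb array A. It was 5 without AIN-76A control array D, AIN-76A 100 ppb array B or C, AIN-76A food array A, E or F, LRD-5001 control array D or F, LRD-5001 10 ppb water array A, LRD-5001 100 ppb array B or E or LRD-5001 food array B.

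F13b encodes the carrier subunit of factor XIII, the enzyme that crosslinks fibrin. On AIN-76A it read 8.93, 9.27, 9.33, 9.52 and 9.90 in controls, 9.02, 9.35, 9.63, 9.67 and 9.69 at 10 ppb in water, 8.94, 9.04, 9.24 and 9.68 at 100 ppb, and 8.90, 9.49, 9.53, 9.63 and 9.69 at 10 ppb in food. On LRD-5001 it read 9.54, 9.62, 9.85, 9.89 and 9.99 in controls, 9.51, 9.61, 9.96, 9.98 and 10.08 at 10 ppb in water, 9.54, 9.59, 9.78, 9.90 and 10.17 at 100 ppb, and 9.26, 9.61, 9.63, 9.90 and 9.97 in food. The diets overlapped at every level, and the LRD-5001 mean was the higher one at all 4, by 0.39, 0.35, 0.57 and 0.23. The difference over all levels was 0.38 (SE 0.089, adjusted p = 0.0058), a fold of 1.31, and it passed without any 1 of the 39 arrays. F13b is 1 of the genes that read low on the arrays that stood apart, and the difference passed without those arrays too.

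F11, the zymogen of factor XI, was higher by 0.33 (SE 0.096, adjusted p = 0.0438), and Serpind1 by 0.17 (SE 0.050, adjusted p = 0.0486). Both lay close to the threshold. Of the 39 fits that each left out 1 array, F11 did not pass in 24 and Serpind1 not in 30. Serpind1 did not pass under 5 of 11 alternatives either. Klkb1, the neighbour of F11 on the chromosome, had the largest difference of all members, 0.44, and did not pass (SE 0.15, adjusted p = 0.0964).

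Kng1, the source of bradykinin, read 11.78, 11.92, 12.12, 12.23 and 12.30 in controls on AIN-76A, 11.87, 11.997, 11.997, 12.09 and 12.20 at 10 ppb in water, 11.91, 12.20, 12.37 and 12.38 at 100 ppb, and 12.04, 12.13, 12.14, 12.23 and 12.27 in food. On LRD-5001 it read 11.64, 11.86, 11.86, 11.94 and 12.08, then 11.82, 11.91, 11.91, 11.93 and 11.98, then 11.92, 11.93, 11.94, 11.99 and 12.04, then 11.87, 11.93, 12.02, 12.05 and 12.08, in the same order of exposures. The ranges overlapped at every level, and the spread at 100 ppb was wider on AIN-76A. The difference was -0.19 (SE 0.046, adjusted p = 0.0123), and without the arrays that stood apart it was -0.16 and did not pass (adjusted p = 0.0639). A second and dimmer Kng1 probe set gave -0.17 and did not pass either (adjusted p = 0.14).

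Cfp encodes properdin, which stabilises the alternative convertase and which leukocytes make. On AIN-76A it read 5.35, 6.09, 6.45, 6.54 and 6.73 in controls, 5.51, 5.79, 5.86, 6.07 and 6.72 at 10 ppb in water, 5.61, 5.63, 5.78 and 5.95 at 100 ppb, and 6.02, 6.10, 6.20, 6.33 and 6.49 in food. On LRD-5001 it read 5.02, 5.15, 5.58, 5.74 and 5.96, then 5.37, 5.46, 5.49, 5.66 and 6.02, then 5.14, 5.42, 5.44, 5.65 and 6.17, then 5.48, 5.72, 5.80, 5.91 and 6.16, in the same order. The diets overlapped throughout, with a difference of -0.43 (SE 0.11, adjusted p = 0.0147). It did not pass with all 59 arrays in 1 fit (adjusted p = 0.0806). A second and dimmer Cfp probe set gave -0.001 (adjusted p = 1.00), and the mean of both passed with -0.22. Cfb, the protease of the alternative convertase, fell by 0.28 (SE 0.080, adjusted p = 0.0312) and C6, which joins the pore, by 0.29 (SE 0.083, adjusted p = 0.0348). F2 fell by 0.11 (SE 0.031, adjusted p = 0.0417). These 3 calls rested on single arrays: with 1 array left out, F2 did not pass in 22 of 39 fits, C6 in 15 and Cfb in 10. Under the 11 alternatives F2 did not pass in 4, with an adjusted p of up to 0.18.

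**Figure D3:**
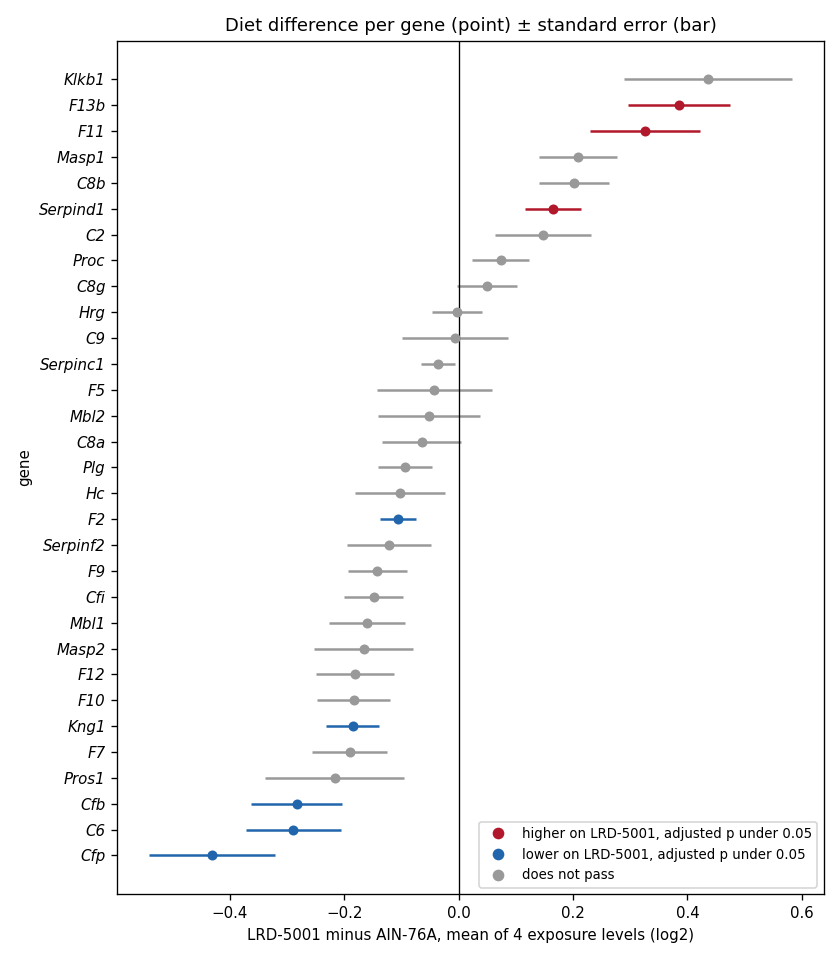
Difference between the diets for each of the 31 members, LRD-5001 minus AIN-76A, as the mean of the 4 exposure levels on the log2 scale, with standard errors. The 3 members in red and the 5 in blue passed the threshold, and the differences run from -0.43 for Cfp to 0.44 for Klkb1.

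All 3 measured genes of the alternative pathway and factor I read lower on LRD-5001, and 2 of them passed, with Cfi at -0.15 (adjusted p = 0.12). Of the 6 terminal components 1 passed, and C8b read higher by 0.20 (adjusted p = 0.055). In the contact system 1 of 4 rose and 1 fell. Of the 6 procoagulant genes 1 rose and 1 fell, and the 3 genes of the plasminogen system gave -0.12 to -0.002 with none passing. The probe sets of Masp1 disagreed: the one that stands for it read higher by 0.21 (adjusted p = 0.0759), and a dimmer one fell by 0.24 (adjusted p = 0.0371).

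**Figure D4:**
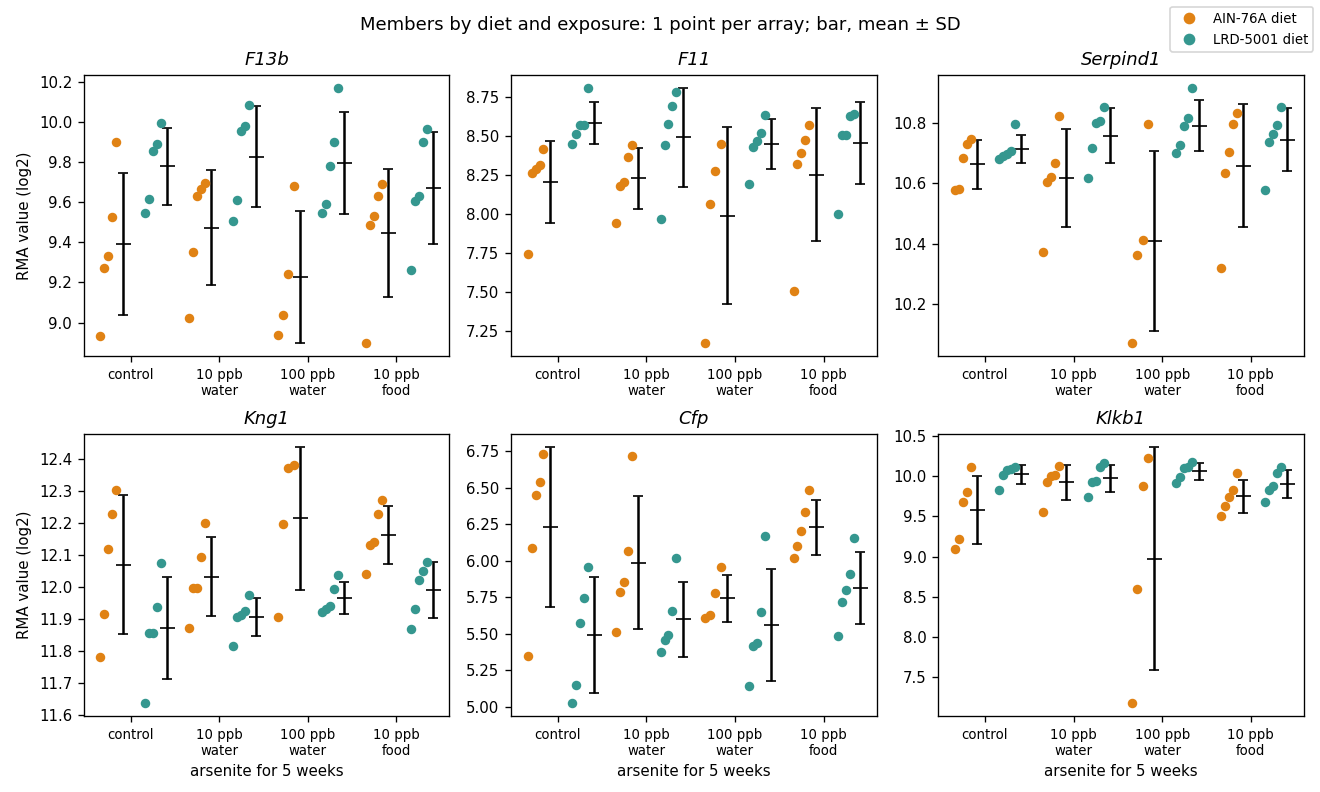
Log2 RMA values of 6 members on each array of the 5-week experiment, by exposure and diet (AIN-76A orange, LRD-5001 green), with the mean ± SD beside the points. F13b has the higher mean on LRD-5001 at all 4 levels, and Klkb1 drops to 7.18 on 1 array with 100 ppb in water on AIN-76A.

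Markers of inflammation moved with the diets. Of the 20 acute phase genes 10 were lower on LRD-5001, with a median difference of -0.55, and the largest were Lcn2 (-3.34) and Apcs (-1.39). The mean level of that list ran from 8.73 to 11.45 in AIN-76A controls and from 8.66 to 8.89 in LRD-5001 controls. Of 10 Kupffer cell markers 3 were lower, Clec4f (-0.40), Csf1r (-0.33) and Cd5l (-0.37), and of 8 neutrophil markers 2, S100a8 (-1.25) and S100a9 (-1.30). None of 6 monocyte markers and none of 9 hepatocyte markers passed. The Kupffer cell level ran from 6.03 to 7.06 in AIN-76A controls and from 5.88 to 6.03 in LRD-5001 controls. The part of these shifts in the members' differences was not tested.

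Within single exposure levels fewer members passed. In controls 0 of 31 did, against 0.568% of all probe sets, and limma gave 11 a p under 0.05 before adjustment. The smallest p-values were those of Cfp (-0.74, adjusted p = 0.15), C6 (-0.52) and Cfb (-0.48), and without AIN-76A control array B 1 member passed. At 10 ppb in water 0 passed against 0.344%, with 1 at an unadjusted p under 0.05, and the first were C8b (0.31), F13b (0.35) and Cfp (-0.39). At 10 ppb in food 0 passed against 0.295%, with 1 at an unadjusted p under 0.05, and the first were F7 (-0.28), C6 (-0.33) and Cfp (-0.41).

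At 100 ppb in water 2 of 31 passed, Serpind1 (0.38, SE 0.10, adjusted p = 0.0423) and Mbl1 (-0.51, SE 0.14, adjusted p = 0.0445), against 2.05% of all probe sets, 1.43% higher and 0.624% lower. Serpind1 read 10.07, 10.36, 10.41 and 10.80 on AIN-76A and 10.70, 10.73, 10.79, 10.82 and 10.92 on LRD-5001. Mbl1 read 10.21, 10.35, 10.94 and 11.06 on AIN-76A and 9.96, 10.04, 10.12, 10.25 and 10.26 on LRD-5001. Both genes overlapped between the diets through 1 AIN-76A array, letter A. Without that array 7 members passed, and without AIN-76A array B or C or any of the 5 LRD-5001 arrays none did.

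The 4 livers given 100 ppb on AIN-76A differed among themselves. On arrays A, D, C and B the acute phase level was 9.18, 10.76, 11.76 and 11.97. In the same order, Klkb1 read 10.23, 9.88, 8.60 and 7.18. Pros1, the gene of protein S, the cofactor of activated protein C, read 6.86, 7.24, 7.83 and 8.81. Mbl1 was highest on C and B, Serpind1 was lowest on B, and C9, the last component of the pore, read 12.31, 12.25, 10.61 and 11.66. These arrays were picked out after the values were seen. Klkb1 fell at every step of the acute phase level in 4 of the 12 groups and not in the other 8. The 4 were AIN-76A controls, 100 ppb on AIN-76A, saline and arsenite by injection. Pros1 rose at every step in 1 of 12, the group given 100 ppb on AIN-76A. The order was looked at for Klkb1 and Pros1 only. No share over all probe sets was taken, so these counts do not show whether the order is particular to them. On saline arrays A, B, C, E and F the acute phase level was 10.82, 9.29, 11.30, 11.16 and 11.05, Klkb1 read 9.68, 10.10, 9.47, 9.49 and 9.55, and Pros1 read 7.41, 6.79, 7.40, 7.48 and 6.72. On double injection arrays A, C, D, E and F the acute phase level was 11.58, 10.15, 10.38, 9.67 and 11.03. In the same order, Klkb1 read 7.62, 8.89, 8.41, 7.70 and 8.87. Array A thus had the highest level and the lowest Klkb1. Array E had the lowest level with the next lowest Klkb1, and is the array with low Fkbp5 named above. After dexamethasone alone array E had both the highest level, 10.65, and the highest Klkb1, 8.94. The part of the acute phase level in the members' values was not tested.

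Arsenite for 5 weeks moved no member past the threshold, whether 10 ppb in water, 100 ppb in water or 10 ppb in food, on either diet. The share of all probe sets that passed was 0.00888% with 100 ppb in water on AIN-76A and 0% in the other 5 comparisons. Before adjustment, limma gave a p under 0.05 to 0, 6 and 0 members on AIN-76A (10 ppb in water, 100 ppb in water, 10 ppb in food) and 2, 1 and 2 on LRD-5001. The widest range of differences was that of 100 ppb on AIN-76A, from -0.61 (Klkb1) to 0.64 (Pros1). Its smallest p-values were those of Mbl1 (0.36, SE 0.14, adjusted p = 0.40), Pros1 (0.64, SE 0.25, adjusted p = 0.41) and Serpind1 (-0.25, SE 0.10, adjusted p = 0.43). Without array A of that group 1 member passed, Serpind1 with -0.38 (adjusted p = 0.0437), and without the arrays that stood apart Mbl1 did, with 0.54 (adjusted p = 0.0481).

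The other arsenite comparisons stayed smaller. At 10 ppb in water on AIN-76A the first were Cfb (-0.29), Plg (-0.15), the gene of plasminogen, and Pros1 (-0.36), with adjusted p-values of 0.99. In food on AIN-76A they were Mbl1 (-0.19), Proc (0.10), the gene of protein C, and Kng1 (0.09). On LRD-5001 they were F9 (0.23), Hc (0.32), the gene of complement component C5, and C6 (0.33) at 10 ppb in water, Hc (0.33), F9 (0.19) and Cfi (0.19) at 100 ppb, and C6 (0.34), Cfb (0.33) and Hc (0.31) in food. These 3 share the LRD-5001 controls, so their likeness is no repeat.

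The test of whether the diets differed in their response gave no member past the threshold at 10 ppb in water, 100 ppb in water or 10 ppb in food, and 0% of all probe sets. Limma found 1, 2 and 1 members at an unadjusted p under 0.05. The smallest p-values were those of Mbl1 (0.39), C6 (0.45) and F9 (0.28) at 10 ppb in water, of C9 (0.67, SE 0.27), Serpind1 (0.33, SE 0.14) and C8b (0.35) at 100 ppb, and of Mbl1 (0.45, SE 0.19), Cfb (0.27) and Cfi (0.17) in food.

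Other genes of both cascades were read from lists of 24 complement and 23 coagulation genes. In the diet average 5 of 17 measured complement genes were lower on LRD-5001 and none higher. Of all probe sets 1.59% passed as lower and 2.67% as higher. The 5 complement genes were Serping1 (-0.33), the C1 inhibitor, C4bp (-0.34), a brake on the classical convertase, Vtn (-0.22), C1qa (-0.42) and Clu (-0.14). Of 21 measured coagulation genes 5 were lower and none higher, among them all 3 fibrinogen chains, Fga (-0.29, SE 0.057), Fgb (-0.24, SE 0.051) and Fgg (-0.24, SE 0.042, adjusted p = 0.000156). The list medians were -0.15 and -0.02, against -0.01 over all probe sets.

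Serpina5, the protein C inhibitor, was the 1 gene of these lists that rose with dexamethasone. It read 1.79, 1.86, 1.87, 2.07 and 2.19 with saline and 4.02, 4.40, 4.48, 4.80 and 5.27 with dexamethasone, a fitted difference of 2.64 (adjusted p = 0.0059). The saline values lie below the median probe set (2.46), so the size of the difference is not exact. With arsenite alone it read 1.75, 2.03, 2.27, 2.28 and 2.39, and with both agents 2.06, 4.52, 5.39, 5.63 and 6.02. The array at 2.06 is double injection array E, which lay among the arrays without dexamethasone. In the average over arsenite, where 1.69% of all probe sets passed as lower, 2 of 17 complement genes were lower, Serping1 (-0.36) and Cr1l (-0.27). So were 4 of 21 coagulation genes. These were Serpina10 (-1.02, SE 0.26, adjusted p = 0.0302), which inhibits factor Xa with protein Z, Habp2 (-0.53), Proz (-0.39), the gene of protein Z, and Vkorc1 (-0.36), the enzyme that recycles vitamin K for the maturation of several clotting factors.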

How the data were processed

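The series holds 59 arrays of mouse liver RNA. The deposited values are log2 expression values per probe set, which the authors made with RMA, per the submitters' processing notes. No source used here names the version or the settings. RMA draws dim probe sets together, so their differences can be understated. No filter or further scaling was applied, and the array medians lie between 2.42 and 2.59. Of 45101 probe sets, 64 controls were left out.

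A model of 1 mean per group was run in R 4.3.3 with limma 3.58.1, once on the 39 arrays of the 5-week experiment and once on the 20 injection arrays. P-values were adjusted by Benjamini-Hochberg over 45037 probe sets, with a threshold of 0.05. They judge a difference of group means against the spread between arrays within groups, which limma pools over the groups of an experiment. The fit was tested on simulated data.

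Named were, per comparison, the members that passed (at most 8), otherwise the 3 with the smallest p, and up to 4 genes per other list. Values by array are given for up to 3 members per main comparison. Members and lists were chosen with earlier results of these data known. The replicate letters were not used to pair the samples in the main fits. In 0 of 15 comparisons did all same-letter arrays correlate above 0.1, a rule that cannot exclude a factor shared by a letter. The mean same-letter correlation ran from -0.143 to 0.173. Alternatives were 1 fit for all arrays, fits of only the groups compared, other scalings and probe set choices, blocks for the letters or the arrays that stood apart, and leaving out arrays. The dexamethasone average was added after seeing the data.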

Additional observations from a re-analysis of the deposited data

Results flagged for a closer look

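Of 90 groups of the members named in the report, 7 held an array far from the other arrays of its group, and about 4.5 are expected by chance at 1 in 20. On AIN-76A with 10 ppb in water, array A had Cfb at 10.89, above 10.43 to 10.53 on the others. F11 had such an array in 3 groups. It read 8.00 on array C of LRD-5001 with 10 ppb in food (others 8.51 to 8.64), 7.75 on array C of the AIN-76A controls (others 8.26 to 8.42) and 7.51 on array D of AIN-76A with 10 ppb in food (others 8.32 to 8.57). On that last array F13b read 8.90, below 9.49 to 9.69 on the others. These 3 arrays are among those that stood apart in their groups, and F11 and F13b read low on such arrays in 12 of 12 groups. The axis that marks such arrays was built from these genes too, so this is no separate result. LRD-5001 control array E had Serpind1 at 10.80 (others 10.68 to 10.71). Saline array B had Serpinf2 at 10.36 (others 10.87 to 11.04).

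Of 93 effects compared between the diets, 1 had a sign on AIN-76A opposite to that on LRD-5001 in every array. With 10 ppb in water, Mbl1 differed from its diet's controls by -0.20 on AIN-76A and by 0.19 on LRD-5001. The difference between them was 0.39, and the limma test of that difference did not pass (adjusted p = 0.999).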

How the results depend on the processing

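No member that passed changed its sign under the alternatives run. With all 59 arrays in 1 fit, the members passing were 5 for the diet average, 1 for diet at 100 ppb, 4 for dexamethasone on top of arsenite and 10 for dexamethasone averaged over arsenite, the last comparison and its alternatives being chosen after seeing the data. With only the groups compared in the fit they were 0 for diet at 100 ppb, 5 for dexamethasone against saline, 1 for the double injection against saline and 0 for dexamethasone on top of arsenite. Quantile normalization gave 1 for the last. With the replicate block they were 4 for the diet average, 0 for diet at 100 ppb and 1 for the double injection, Mbl1. With the arrays that stood apart as a block they were 13 for the diet average and 6 for diet at 100 ppb. Without those arrays they were 6 for diet at 100 ppb, 1 for 100 ppb on AIN-76A, 1 for the double injection and 1 for dexamethasone on top of arsenite. The cause was not tested.

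Leaving out 1 array at a time gave 3 to 10 members for the diet average, 0 to 7 for diet at 100 ppb, 0 to 1 for diet in controls and for 100 ppb on AIN-76A, 2 to 4 for dexamethasone, 1 to 5 for the double injection, 1 to 3 for dexamethasone on top of arsenite and 5 to 9 for dexamethasone averaged over arsenite. For the diet average the count moved by over 1.5 times without any 1 of 19 arrays, and was 3 without AIN-76A control array E, LRD-5001 control array C, AIN-76A 10 ppb water array A or LRD-5001 food array E. F13b in the diet average, and Mbl1 and Serpinf2 with dexamethasone against saline, passed under every alternative and without every single array. The number of arrays limits the precision.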

Other observations

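Among the 4 livers given 100 ppb in water on AIN-76A, Fkbp5 read 5.17, 5.86, 8.55 and 8.82 on arrays A, D, C and B, and 4.91 to 6.22 in the AIN-76A controls. Mt1 read 7.26, 12.06, 12.97 and 12.88 on the same arrays, and 5.03 to 12.49 in the controls. Of 12 glucocorticoid target genes 7 rose and 1 fell with dexamethasone averaged over arsenite. These values belong to no comparison of the members, and what they share with the members' values was not tested.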
